A study of Homo sapiens with 19 samples.

Results

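In MOLM-13 cells given Corin, 1715 regions carried an H3K27ac peak in both Corin libraries and in neither DMSO library, and overlapped no H3K4me2 peak in any library. They were chosen by presence and absence of called peaks. The 4 H3K27ac lists were merged into 41587 union regions (peaks overlapping by at least 1 bp), of which 4798 were gained, that is present in both Corin and neither DMSO list. The 1715 are those of the 4798 that overlapped no peak of the 4 H3K4me2 lists. The H3K27ac and H3K4me2 calls therefore selected the regions, so their presence and absence there are descriptions without a test. Absence means that no peak was called, not that the mark was shown to be missing.

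Acetylation of lysine 27 of histone H3 (H3K27ac) marks active promoters and enhancers, and deacetylases remove it. Dimethylation of lysine 4 (H3K4me2) covers promoters and enhancers, trimethylation (H3K4me3) sits mainly at active promoters, and the demethylase LSD1 removes mono- and dimethyl marks. LSD1 and the deacetylases HDAC1 and HDAC2 are subunits of the CoREST repressor complex, and Corin is a hybrid inhibitor directed at both activities.

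The marks were mapped by CUT&RUN, in which an antibody-guided nuclease releases marked chromatin. MOLM-13 is an acute myeloid leukaemia cell line that carries an MLL fusion. All cells were of this 1 line, and the groups were Corin at 0.1 µM for 24 h and the vehicle DMSO for 24 h, for which the labels give 0.1 µM as well. Each mark had 2 libraries per treatment, and nothing says that these came from separate cultures, so spread and p-values measure only the difference between these libraries, which may be technical. The remaining 7 of the 19 libraries were not analysed here: 4 came from cells that received retinoic acid together with Corin, 2 used IgG and 1 an LSD1 antibody. The calls below therefore have no control antibody beside them.

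The H3K27ac lists held 34424 and 30029 peaks for Corin and 17599 and 19995 for DMSO. The H3K4me2 lists held 30896 to 41152 peaks and the H3K4me3 lists 11104 to 11883. Reads per library were at least 5000000 per the labels and are otherwise unknown. Of 8 genes typical of a myeloid leukaemia line, 7 had an H3K4me3 peak at a start site in all 4 lists (ANPEP did not). Of 14 T cell, B cell, erythroid and epithelial markers, 0 did. The B cell gene CD79A had H3K4me2 there in 4 lists and H3K27ac in 3, PAX5 had H3K4me2 in 4 and EPCAM in 3.

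The sequences below are 300-base windows of the hg38 plus strand around the centres of 3 of the regions. They are the highest-ranked region, the region nearest to H3K4me2 and a promoter with H3K4me3, and do not stand for the set as a whole. Capitals mark matches, on either strand, to the motifs searched (named with their results further on).
GPR183 (chr13:99319630-99319929, intron of UBAC2, highest ranked): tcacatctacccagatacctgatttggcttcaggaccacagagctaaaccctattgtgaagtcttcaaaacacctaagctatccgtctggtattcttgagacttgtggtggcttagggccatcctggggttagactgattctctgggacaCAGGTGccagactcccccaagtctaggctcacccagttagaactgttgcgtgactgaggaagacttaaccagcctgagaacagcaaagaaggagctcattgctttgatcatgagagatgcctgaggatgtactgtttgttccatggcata
DENND4A (chr15:65819636-65819935, intron of RAB11A, 7 bp from H3K4me2): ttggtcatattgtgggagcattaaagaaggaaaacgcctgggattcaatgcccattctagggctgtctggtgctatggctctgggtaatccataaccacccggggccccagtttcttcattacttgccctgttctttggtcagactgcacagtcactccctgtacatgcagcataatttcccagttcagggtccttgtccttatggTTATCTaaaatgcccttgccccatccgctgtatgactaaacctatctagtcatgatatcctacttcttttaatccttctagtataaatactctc
CCT6P3 (chr7:65038612-65038911, promoter with H3K4me3): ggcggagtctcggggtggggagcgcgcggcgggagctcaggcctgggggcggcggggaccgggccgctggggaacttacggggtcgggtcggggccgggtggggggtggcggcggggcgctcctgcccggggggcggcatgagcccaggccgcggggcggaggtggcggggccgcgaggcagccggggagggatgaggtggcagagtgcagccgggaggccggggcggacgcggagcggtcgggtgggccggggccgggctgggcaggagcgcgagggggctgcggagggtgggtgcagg
The first window holds 1 E-box CAGGTG and the DENND4A window 1 GATA match. The CCT6P3 window holds none of the motifs. It is 82.3% G and C with 38 CpG pairs, against 48.3% and 2 in the GPR183 window.

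With all lists in use, the share of gained regions without H3K4me2 was close to that of H3K27ac regions in general. It was 35.7% of the 4798 gained regions, against 36.3% of all 41587 union regions. The share gained was close with and without H3K4me2: 11.4% of the 15086 union regions without H3K4me2 were gained, 11.6% of the 26501 with it, and 11.5% of all union regions. That closeness needed all 4 H3K27ac lists and overlap of 1 bp. In 1 alternative a list had to cover 50% of a region to count as present, for both marks. Less coverage counted as absence, so shorter overlaps with DMSO H3K27ac or H3K4me2 were allowed. The share without H3K4me2 was then 37.5% of gained and 44.5% of all regions. Without Corin replicate 1 the share without H3K4me2 was 46.3% of gained and 30.4% of all regions, and without Corin replicate 2 it was 49.0% and 33.2%. Without DMSO replicate 1 it was 32.3% and 35.8%, and without DMSO replicate 2 it was 29.1% and 35.5%. Without Corin replicate 1, 51.5% of the regions without H3K4me2 were gained against 33.8% of all, and without Corin replicate 2, 62.8% against 42.6%. Without DMSO replicate 1 these shares were 14.8% and 16.4%, and without DMSO replicate 2 they were 16.9% and 20.6%. The gained share thus stood above or below that of all regions according to which library was left out. Lost regions, present in both DMSO and neither Corin list, numbered 75, of which 41 were without H3K4me2. The Corin lists are longer, and with matched numbers of peaks 1195 regions were gained and 419 lost.

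The share without H3K4me2 fell with the number of libraries that called a region. It was 56.0% for regions in 1 of 4 H3K27ac lists, 36.3% in 2 lists, 21.6% in 3 and 7.02% in all 4 (667 regions). A gained region was by its definition called in exactly 2. Promoters, here regions within 1000 bp of an annotated transcription start, also entered the overall figure. Off promoters, 43.4% of 3728 gained regions and 48.8% of all 29238 lacked H3K4me2. At promoters, 96 of 1070 gained regions did (8.97%), against 6.72% of all.

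Seen from the single lists, 31.4% and 27.7% of the Corin H3K27ac peaks overlapped no H3K4me2 peak, and 19.3% and 20.3% of the DMSO peaks. The Corin libraries were both above the DMSO libraries. The lists differ in length, however. Cut to the 17599 highest scores of each, the shares were 17.5% and 17.9% in Corin and 19.3% and 18.2% in DMSO, and the Corin values were then both below. This cut was added after seeing the data.

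**Figure D1:**
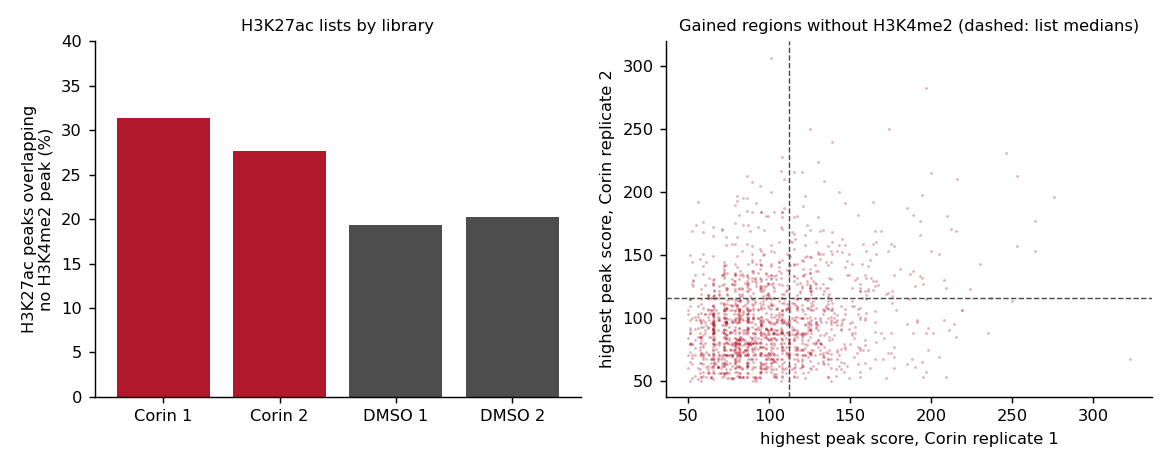
Left, percent of the H3K27ac peaks of each library that overlapped no H3K4me2 peak (Corin red, DMSO grey, 1 bar per library): 31.4%, 27.7%, 19.3% and 20.3%. Right, each point is 1 of the 1715 regions, placed by its highest peak score in Corin replicate 1 and replicate 2 (the authors' score, no unit). Dashed lines are the list medians of 112 and 116, and most points lie to the left of and below them.

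The peaks in the regions were mostly in the lower part of their lists. Corin replicate 1 had 1739 peaks in the regions and replicate 2 had 1756, with a median length of 382 and 322 bp. The score deposited with each peak, whose definition is not given in the sources used here, had a median of 95 in replicate 1 and 93 in replicate 2. The list medians were 112 and 116. Only 29.7% and 24.1% of these peaks scored above the median of their own list. The regions sat at a median score percentile of 37.3 and 32.9 within the Corin lists, below gained regions with H3K4me2 at 47.2 and 40.6. Regions without H3K4me2 that were acetylated in all 4 lists sat at 73.4 and 65.1, and those in 1 list at 25.2 and 21.1.

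The median width of the regions was 513 bp (quartiles 377 and 707.5 bp), and the longest measured 2599 bp. Gained regions with H3K4me2 had a median of 598 bp. Regions in all 4 lists without H3K4me2 had a median of 1111 bp and those in 1 list 277 bp. All union regions had a median of 497 bp. Of the bp in the regions, 46.9% were under a peak of both Corin libraries. Replicate 1 covered more bp in 1056 regions and replicate 2 in 652.

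Ranked by the lower of its score percentiles in the Corin libraries, the first region lay in an intron of UBAC2, 12030 bp upstream of GPR183, a receptor for oxysterols (chr13:99319429-99320131). Its scores were 246 in replicate 1 and 231 in replicate 2, with 467 and 703 bp under peaks and 0 bp in either DMSO library. An H3K4me2 peak that only the Corin libraries called began 349 bp away. Next by rank came a region 15058 bp upstream of NSUN4, an RNA methyltransferase (chr1:46325464-46325749, scores 253 and 213). It lay 13916 bp from the nearest H3K4me2 peak and 14399 bp from the nearest DMSO H3K27ac peak.

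Among the 5 widest regions the longest, 2599 bp in an intron of ATP6V1B2, a subunit of the vacuolar proton pump, had 1888 and 1169 bp under Corin peaks with scores of 167 and 126. It was 18856 bp from H3K4me2 but 846 bp from DMSO H3K27ac. In TSPOAP1 a region of 2236 bp (chr17:58304003-58306238, scores 95 and 142) began 85 bp from a DMSO H3K27ac peak and was 17246 bp from H3K4me2. The other widest regions were 1 in CCDC12 (chr3:46931481-46933501) and intergenic ones 315098 bp from TSNARE1 and 19856 bp from MAGEF1 (chr3:184690231-184692208). In the order TSNARE1, CCDC12 and MAGEF1 they measured 2142, 2021 and 1978 bp and lay 975, 1855 and 1171 bp from H3K4me2.

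Most regions lay inside genes and away from their starts. Of the 1715, 64.3% were intronic, 13.5% touched an exon, 16.6% were intergenic and 5.60% were at promoters. Gained regions with H3K4me2 were at promoters in 31.6% and intronic in 42.1%. The regions in all 4 lists without H3K4me2 were at promoters in 9.15% and intronic in 58.9%. The median distance to a start site was 14490 bp, against 4379 bp for gained regions with H3K4me2 and 18030 bp for those in all 4 lists without it.

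Their host genes were mainly genes whose promoter bears H3K4me3. A protein-coding gene held 74.6% of the regions and a gene with an H3K4me3 promoter (a peak within 1000 bp of a start in all 4 H3K4me3 lists) held 66.4%. Those genes cover 42.3% and 19.4% of the genome. The same shares over all union regions were 73.5% and 64.2%, so that placement was near that of H3K27ac regions in general. For gained regions with H3K4me2 they were 66.0% and 52.8%. In genes with an H3K4me3 promoter the regions numbered 2.43 per Mb in genes up to 20 kb long, 2.44 per Mb in genes of 20 to 100 kb and 1.55 per Mb in longer ones. Without an H3K4me3 promoter the same 3 classes held 0.65, 0.54 and 0.14 per Mb, and sequence outside protein-coding genes held 0.24 per Mb. Gained regions with H3K4me2 numbered 10.2, 3.27 and 1.76 per Mb in the 3 length classes of genes with an H3K4me3 promoter.

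The 10 genes with the most regions were 90.3 to 1217 kb long, all with an H3K4me3 promoter. ETV6, an ETS-family repressor of blood cell development, had 9 in its 246 kb (chr12:11649674-11895377, plus strand). FNDC3B, CCDC88C, a Dishevelled-binding protein, and DOCK2, an activator of Rac in blood cells, had 8 each in 362, 146.5 and 446 kb. COL23A1, UBAC2 and RANBP9 had 7 each within the gene or 50 kb of a start. TRERF1, CDK6, a cyclin D-dependent kinase, and RUNX1, a core factor of blood formation, had 6 each. Per 100 kb of gene RANBP9 was densest among them at 6.64 and RUNX1 sparsest at 0.49.

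All 9 ETV6 regions were intronic. The highest-scoring, 106 kb from the start, had scores of 194 in Corin replicate 1 and 198 in replicate 2, with 936 and 338 bp under peaks. It was 1567 bp from H3K4me2 and 959 bp from DMSO H3K27ac. The widest, of 1633 bp and 226.7 kb from the start, had 1360 and 591 bp under peaks and lay 19257 bp from H3K4me2. The 9 regions ranged from 228 to 1633 bp and lay 1567 to 34835 bp from H3K4me2 and 388 to 19194 bp from DMSO H3K27ac. The gene was already acetylated without Corin: the DMSO lists had 39 and 44 H3K27ac peaks in it and the Corin lists 64 and 69. H3K4me2 peaks in it numbered 10 and 11 with Corin and 11 and 11 with DMSO.

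**Figure D2:**
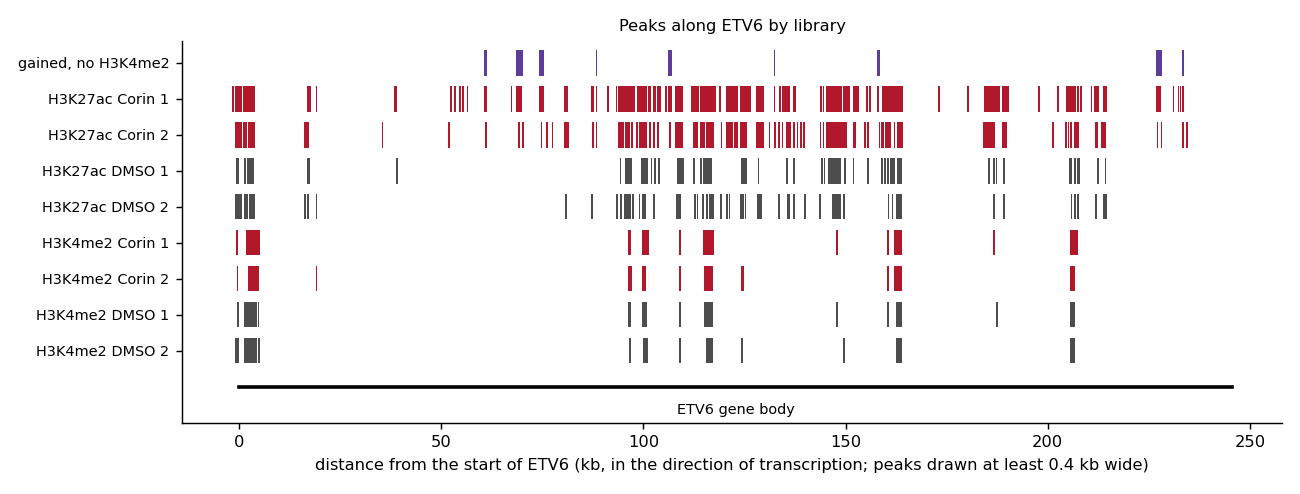
Peaks along ETV6 by library, drawn as blocks at their distance from the gene's start in kb (Corin red, DMSO grey), with the 9 gained regions without H3K4me2 in purple on top. The purple blocks lie between clusters of H3K27ac that the DMSO libraries also show and at the 3′ end of the gene, and 3 lie between 60.7 and 74.2 kb where the DMSO libraries show no peak.

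Joined where less than 10 kb apart, the 1715 regions formed 1435 clusters. Of these 1214 were single regions, 173 were pairs and 48 held 3 or more regions (155 regions in all, at most 5 together).

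Within 50 kb of a start, 1992 of 20046 protein-coding genes had a region (9.94%), and 14.7% of the 9949 with an H3K4me3 promoter. These shares are the base for the gene lists that follow, which are described by counts only. Of 14 targets of MLL fusions 7 had one, and 13 of the 14 have an H3K4me3 promoter. FLT3, a receptor kinase of leukaemic blasts, had 3, with 1534 bp under peaks in Corin replicate 1 and 1543 bp in replicate 2. JMJD1C, a jumonji-family protein, had 3, with 913 and 829 bp. MYB, the transcription factor, had 1 with 1477 and 439 bp. BCL2, MEF2C, RUNX2 and ZEB2 had 1 each. HOXA9, HOXA10, MEIS1, PBX3, LMO2 and EYA1 had 0, and the 6 regions of CDK6 lay in the gene beyond 50 kb of its start. Gained regions with H3K4me2 lay near 10 of the 14; their own base is 21.8% of all protein-coding genes and 30.2% of those with an H3K4me3 promoter.

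Of 18 genes of myeloid differentiation 4 had a region. IRF8, a factor of the monocyte lineage, had 4 with 2335 and 2614 bp under Corin peaks. CSF1R, the receptor for macrophage colony-stimulating factor, had 3 with 1149 and 1148 bp, and the costimulatory CD86 and the lysozyme gene LYZ had 1 each. CD14, ITGAM, CEBPE and the other 11 had 0, and gained regions with H3K4me2 lay near 11 of the 18, against the same base of 21.8% of all genes. Of 15 genes in a list of CoREST and partners 3 had 1 region each: GSE1, HMG20B and HDAC3. HDAC3 is a deacetylase that is not among the CoREST subunits named above. KDM1A, which encodes LSD1, RCOR1, HDAC1 and HDAC2 had 0. The acetyltransferase KAT2A had 1, with 356 and 488 bp. Of 12 retinoid genes RARA, the retinoic acid receptor alpha, had 2, with 1010 and 733 bp.

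Distances to H3K4me2 covered a wide range. The median distance to the nearest H3K4me2 peak of any list was 2370 bp (quartiles 714.5 and 8238 bp). It lay within 1 kb for 538 regions (31.4%), at 1 to 10 kb for 805 and beyond 10 kb for 372 (21.7%). The share beyond 10 kb was 30.2% for regions in 1 list without H3K4me2, 30.7% for those in all 4 and 10.6% for all union regions, most of which overlap H3K4me2. For 19.8% H3K4me2 peaks stood within 5 kb on both sides. The nearest H3K4me2 region was present in all 4 lists for 55.8%, gained with Corin for 10.1% and lost for 0. For all union regions these shares were 67.0%, 7.45% and 0.084%, and for regions in 1 list without H3K4me2 53.9%, 9.96% and 0.12%. Regions in all 4 H3K27ac lists without H3K4me2 were a median of 2908 bp away, and those in 1 list 3961 bp.

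Acetylation present in DMSO cells was also near. The nearest DMSO H3K27ac peak was a median of 2006 bp away, against 5034 bp for gained regions with H3K4me2. It lay within 1 kb for 578 regions (33.7%, against 29.3% of gained regions with H3K4me2) and beyond 10 kb for 388 (22.6%). Both marks, DMSO H3K27ac and H3K4me2, were within 1 kb of 338 regions (19.7%), and both were beyond 10 kb for 217 (12.7%). For regions in 1 list without H3K4me2 these shares were 13.1% and 17.0%, and for all union regions 52.6% and 4.74%. Those sets include regions called in DMSO, whose distance to DMSO H3K27ac is 0, and most union regions overlap H3K4me2. The rule excludes each of these for gained regions without H3K4me2, so the shares are not like for like. For regions without H3K4me2 called in 1 Corin list and no DMSO list, the median distance to DMSO H3K27ac was 4190 bp. Of the gained regions with H3K4me2, 40.5% had no DMSO acetylation within 10 kb.

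**Figure D3:**
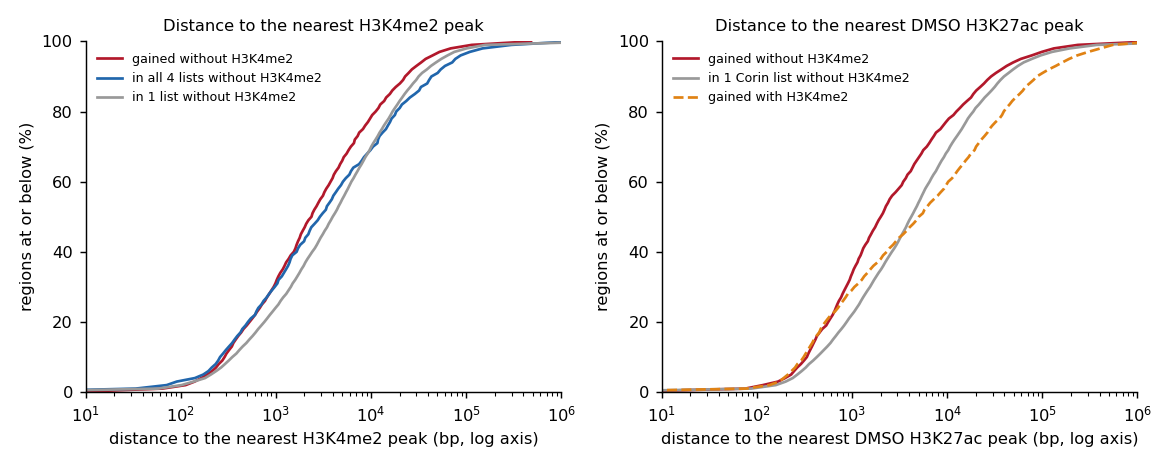
Cumulative percent of regions by distance (bp, log axis) to the nearest H3K4me2 peak (left) and to the nearest DMSO H3K27ac peak (right), 1 line per set of regions. The gained regions without H3K4me2 (red) reach 50% at 2370 bp on the left and 2006 bp on the right, where gained regions with H3K4me2 (dashed orange) reach it at 5034 bp.

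The 372 regions farther than 10 kb from H3K4me2 were not of lower score than the rest. Their median score percentiles were 37.3 and 32.9, the same as for the 538 within 1 kb. A protein-coding gene held 82.0% of them, against 69.5% of those within 1 kb, and a gene with an H3K4me3 promoter 76.1% against 57.6%. Their median distance to a start was 20870 bp against 12770 bp.

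At the far end stood a region in LINC02497, 481238 bp from H3K4me2 (chr4:31201946-31202393, nearest coding gene PCDH7, a protocadherin). Its scores were 93 and 100, and DMSO H3K27ac was 404 bp away. Intergenic regions whose nearest coding genes were TUSC1, 316352 bp away (chr9:25994796-25995453), and CNTN3, a contactin, 519278 bp away (chr3:75133937-75134398), were 315593 and 298570 bp from H3K4me2. They lay 4254 and 826 bp from DMSO H3K27ac. The 3 regions farthest from H3K4me2 thus each had an acetylated DMSO neighbour within 5 kb. They do not stand for their class: of the 372 regions beyond 10 kb, 217 (58.3%) had no DMSO H3K27ac within 10 kb.

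At the edge of the rule, a region in RAB11A upstream of DENND4A was 7 bp from an H3K4me2 peak that a single DMSO library called, and regions 4474 bp from SFTPB and at SPIN2B were 10 bp away. In all, 28 regions had H3K4me2 within 100 bp and 95 within 200 bp. Just outside the rule, gained regions at TNFAIP8L1, DYRK2 and TPCN2 overlapped H3K4me2 in 1 list by 1, 4 and 5 bp. The gained regions with H3K4me2 were otherwise well separated from this edge: their median covered share was 100%, 12 were covered for less than 10%, 344 had the mark in 1 list and 1819 in all 4.

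H3K4me3, which the rule did not use, was called in 25 of the 1715 regions (1.46%), and in each of the 25 by all 4 lists. All 25 were promoters. H3K4me2 lay within 1 kb of 24 of them (median 180 bp, at most 1696 bp) and on both sides within 5 kb of 20. Gained regions with H3K4me2 had H3K4me3 in 28.4%, and all union regions in 27.6%. Among regions without H3K4me2 it was called in 0.71% of those in 1 H3K27ac list and 4.95% of those in all 4. A low share of H3K4me3 was thus not particular to the 1715 regions. The H3K4me3 peaks covered 9915 and 10077 bp of the regions with Corin and 9926 and 10100 bp with DMSO, so the libraries of both treatments overlapped.

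The 3 promoters named by rule show the pattern. At YY1, a zinc-finger transcription factor (chr14:100238817-100239591), H3K4me3 covered 698 and 775 bp with Corin and 775 and 775 bp with DMSO, and H3K27ac covered 419 and 775 bp with Corin and 0 with DMSO. H3K4me2 stood 803 bp to the left and 856 bp to the right. At the pseudogene CCT6P3 (chr7:65038397-65039126) H3K4me3 covered 730 bp in each library and the H3K27ac scores were 149 and 52. At ANKRD12 (chr18:9136753-9137375) they were 87 and 128, with H3K4me2 120 and 270 bp away. The H3K27ac scores at these promoters were at most 149.

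The rule used the H3K4me2 lists inside the regions and so also holds H3K4me2 down next to them. H3K4me2 in the flanks is therefore given as a description, with no test. Within 10 kb on either side, the regions left out, H3K4me2 peaks covered 3.06 Mb and 2.70 Mb in the Corin libraries and 2.03 and 2.15 Mb in the DMSO libraries. Both Corin libraries were above both DMSO libraries. The means were 2.88 ± 0.26 Mb and 2.09 ± 0.085 Mb (SD, n = 2 each), a log2 difference of 0.46 or 1.38-fold. Over all H3K4me2 peaks of the genome the same log2 difference was 0.36. With the same number of peaks per list the flank difference was 0.33. No genome-wide value was computed at that number, so 0.33 and 0.36 cannot be compared.

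H3K4me3, whose lists the rule did not use, was tested in the same windows. With the regions included it covered 0.73 and 0.70 Mb with Corin and 0.64 and 0.67 Mb with DMSO. The libraries did not overlap, and the log2 difference was 0.13 (exact two-sided permutation test, p = 0.333, n = 2 each). That is the smallest p that 2 libraries against 2 can give, so the design cannot reach 0.05. Over all H3K4me3 peaks it was 0.08.

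**Figure D4:**
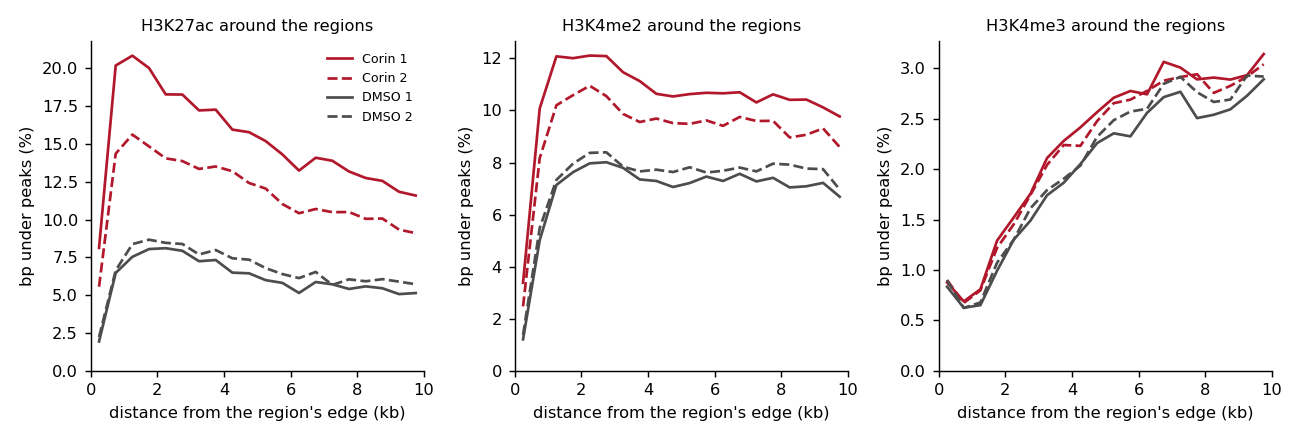
Percent of bp under peaks of H3K27ac, H3K4me2 and H3K4me3 by distance from the edge of the 1715 regions (kb, bins of 500 bp, both sides together), 1 line per library (Corin red, DMSO grey, replicate 2 dashed). In the bin from 2 to 2.5 kb H3K4me2 covered 12.1% and 10.95% with Corin and 7.97% and 8.37% with DMSO. Vertical axes differ between the panels.

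H3K27ac peaks covered more bp in both Corin libraries around the regions and genome-wide, where they covered 26.1 and 20.1 Mb with Corin and 11.1 and 12.6 Mb with DMSO. At 500 to 1000 bp from the edge H3K27ac peaks covered 20.2% and 14.4% with Corin and 6.47% and 6.64% with DMSO, and at 9.5 to 10 kb 11.6% and 9.10% against 5.14% and 5.72%. H3K4me2 at 500 to 1000 bp covered 10.1% and 8.17% with Corin and 5.02% and 5.49% with DMSO. In the first 500 bp both marks were low in each library. The rule itself keeps H3K4me2 and DMSO H3K27ac peaks off the region there. Corin H3K27ac peaks that overlapped a region were merged into it, which also holds their coverage down next to its edge.

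The motif search used 10 motifs, matched as exact letters on both strands in the 300 bp around each centre. No motif was found in 39.6% of the regions, 39.3% of gained regions with H3K4me2 and 40.4% of all union regions. AP-1 (TGACTCA) was in 7.58% of the regions, 9.15% of gained regions with H3K4me2 and 6.86% of all union regions. PU.1 (GAGGAAGT) was in 3.27%, 3.83% and 3.47%. RUNX (TGTGGTT) was in 5.66%, 6.03% and 5.76%. C/EBP (TTGCGCAA, TTGCATCA or TTGCACAA) was in 2.16%, 2.01% and 2.43%. Promoters are a smaller part of the regions than of the other sets. Off promoters AP-1 was in 7.72% of the regions, 11.1% of gained regions with H3K4me2 and 8.24% of all, so its order against all union regions turned. Off promoters PU.1 was in 3.397%, 4.32% and 3.88%, and RUNX in 5.74%, 7.26% and 6.88%. C/EBP was in 2.29%, 2.09% and 2.88%.

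IRF (GAAA and a second GAAA after a gap of 2 bases) was in 3.09%, 3.11% and 3.88%, the motif AGATAA of the GATA factors in 12.2%, 10.96% and 12.3%, and MYB (AACTGAC) in 3.50%, 3.21% and 3.34%. The E-box CAGCTG, a bHLH site, was in 18.3% of the regions and 16.9% of all. The E-box CACGTG was in 3.91% and 5.05%, and the E-box CAGGTG in 25.5% and 23.3%. Off promoters the IRF motif was in 3.03% of the regions, 3.51% of gained regions with H3K4me2 and 4.28% of all. AGATAA was in 12.29%, 13.3% and 14.7%, and the MYB motif in 3.46%, 3.84% and 3.82%. Off promoters AGATAA thus turned to below gained regions with H3K4me2, and the MYB motif to below both other sets. In windows of 600 bp, where 13.6% of the regions and 16.7% of all union regions held no motif, the order turned for several motifs. Against gained regions with H3K4me2 it turned for C/EBP (4.14% and 5.26%), the E-box CAGCTG (30.4% and 30.9%) and IRF (7.87% and 7.82%). Against all union regions it turned for AGATAA (26.2% and 24.5%) and RUNX (11.7% and 11.4%). CpG pairs had a mean of 4.05 per window in the regions, 9.08 in gained regions with H3K4me2, 3.85 in all regions without H3K4me2 and 4.33 in those in all 4 lists without it. Off promoters the means were 3.58 and 4.52 for gained regions without and with H3K4me2.

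How many regions fit the rule depended strongly on the lists. With the highest-scoring peaks in equal number per mark (17599 for H3K27ac, 30896 for H3K4me2), 369 regions were gained without H3K4me2 and 148 lost without it, and 248 of the 369 overlapped 1 of the 1715. At a score of at least 100 there were 918 gained and 16 lost, and 358 of the 918 overlapped 1 of the 1715. Without H3K27ac Corin replicate 2 the rule found 7814 regions, and without Corin replicate 1 it found 5352, since a single list then decided. Of the 1715, 937 had neither H3K4me2 nor DMSO H3K27ac within 1000 bp, and 1177 had no H3K4me2 within that distance. Gained outnumbered lost without H3K4me2 in the settings for which both were counted.

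**Figure D5:**
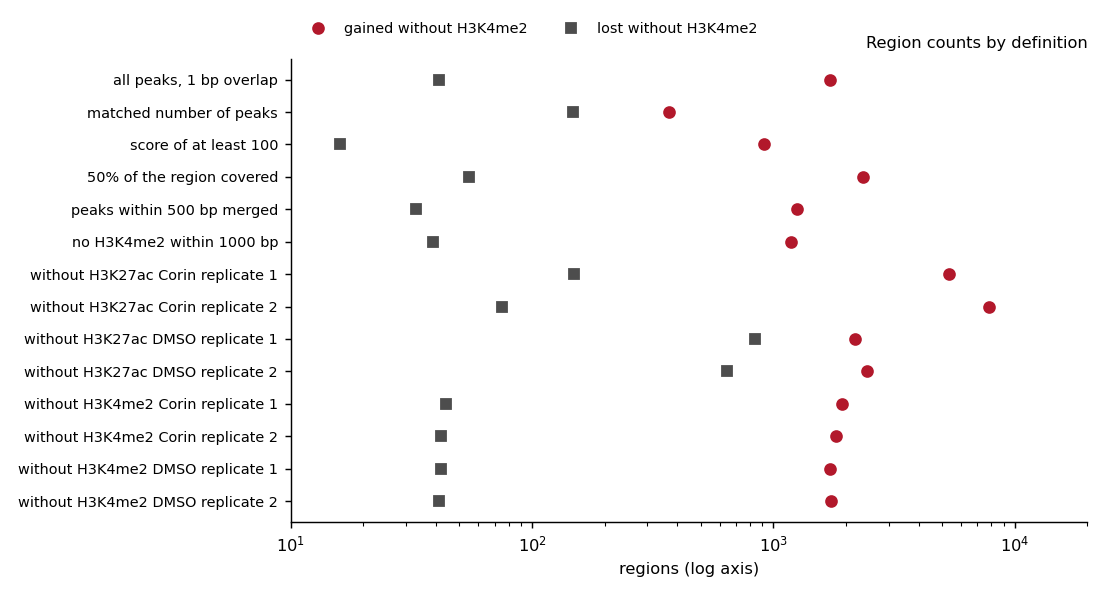
Number of regions gained (circles) or lost (squares) without H3K4me2 under each definition (log axis). With all peaks it was 1715 gained and 41 lost, with matched numbers of peaks 369 and 148, the setting with the fewest gained regions.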

How the data were processed

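Peak lists of 12 CUT&RUN libraries were used, 1 list per library, so peaks were called per library. The submitters' processing notes name Trim Galore, Bowtie2, Picard, MACS2 and hg38, without versions. Each list deposited by the authors gives position and a whole-number score of at least 50, whose definition is not stated. The alternative with a score of at least 100 put the same cut on each list, though scores need not be alike between lists. At 17599 peaks per H3K27ac list the lowest score was 112 and 105 in Corin and 50 and 67 in DMSO. Otherwise the score served to rank peaks within a list. Peak coordinates were compared with hg38 and GENCODE release 44 (0 of 292523 peaks ended past a chromosome). Overlap meant at least 1 bp. Sequences were read from hg38 with pysam 0.24.0. A share of soft-masked bases was planned and not computed, since the genome used carries no mask.

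The regions and gene lists were chosen with earlier results of these data known. Named regions were the 5 widest, the 5 highest by the lower of their Corin score percentiles, the 3 nearest to and the 3 farthest from H3K4me2, and 3 with H3K4me3 in most libraries. Named genes were the 10 with the most regions. Of the highest-ranked, 3 are not reported here. Printed windows were picked from these after their values were seen. Region calls were tested on simulated lists. Flank coverage of H3K4me3 was compared by exact permutation over libraries; the same test planned for H3K4me2 was dropped, since the rule used those lists. Alternatives changed peak number, score, overlap, merging, flank and window size, and left out each library.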

Additional observations from a re-analysis of the deposited data

How the results depend on the processing

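The number of regions was 369 with matched numbers of peaks, 918 at a score of at least 100 and 937 with no H3K4me2 and no DMSO H3K27ac within 1000 bp. It ran from 1721 to 7814 when 1 library was left out. The percent of gained regions without H3K4me2 was 30.9% with matched numbers of peaks (29.3% of all union regions), 24.95% at a score of at least 100 (26.9%), 37.5% when 50% of a region had to be covered (44.5%), 34.1% with peaks within 500 bp merged (33.95%), 24.5% with no H3K4me2 within 1000 bp (27.0%), 43.4% off promoters (48.8%) and 29.1% to 49.0% when 1 library was left out. With the same number of peaks per list, the difference in H3K27ac peaks without H3K4me2 between Corin and DMSO reversed from 9.76 to -1.09 percentage points. With matched numbers of peaks 68.3% of the regions lay in a protein-coding gene and the median distance to H3K4me2 was 2896 bp. With 50% coverage, where less coverage by each list counted as absence, 10.6% lay within 1000 bp of a start and the distance was 807 bp. With no H3K4me2 within 1000 bp these shares were 3.74% at a start and 77.0% in a gene, and the distance was 4867 bp. In windows of 600 bp 86.4% held a motif. The cause of these changes was not tested.

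The flank differences kept their direction in each setting run. They were 0.37 to 0.55 for H3K4me2 and 0.10 to 0.17 for H3K4me3 on the log2 scale when 1 library was left out. A single library left in a group was then assumed to stand for it, and no test could reach 0.05. With the replicate number as a replicate block they were 0.46 and 0.13 (H3K4me3: exact sign-flip test, p = 0.5, the smallest possible). Same-numbered libraries deviated together by correlations of 0.25 and 0.14 over 1715 windows, but the labels do not say that the numbers pair the libraries. Depth limits each absence: without reads or a control antibody, a missing peak cannot be told from a weak one.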
